A study of Mus musculus with 12 samples.

Results

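The antibody genes described here are the immunoglobulin heavy, kappa and lambda genes that were measured in 12 RNA-seq libraries of mouse colonic mucosa, together with Igj and Pigr. Members were the rows whose symbol and annotation name an immunoglobulin chain and whose mean was 5 or more counts over the 12 libraries, with Pigr, Igj and Mzb1 added. This gave 18 of 38592 rows, namely 6 constant genes, 7 variable segments, 3 joining segments, Igj and Pigr. The mean count alone chose the members, so their abundance is a description and no finding. Of 112 rows naming a chain, 96 had a mean under 5 counts and 21 of these were at 0 in every library. Ighj4 and Igkv8-30 stood just inside the limit, at means of 5.05 and 5.09 counts, and Ighv6-6 and Igkv5-39 just outside it, at 5.00 and 4.71 counts.

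The symbols miss part of the antibody repertoire. The files list Igha and 18 variable segments with a mean of 5 or more counts under clone or provisional names, and Mzb1 under a RIKEN name with a mean of 4.56 counts. They were matched to GENCODE M21 by Ensembl identifier and named after their values had been seen, and they are called rows found by identifier below. An unnamed row of the files covers Iglc1 and had a mean of 35.6 counts.

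The libraries came from 6 Sgo1-/+ and 6 wild-type (WT) samples. Sgo1 encodes shugoshin 1, which guards cohesion between sister chromatids, and the study asked how chromosome instability affects the colon. Every mouse of both genotypes had been given the colon carcinogen azoxymethane (4 mg/kg, 2 doses weekly, at 8 to 12 weeks of age), and the mucosa was taken at 9 months. The labels give neither the Sgo1 allele, the strain nor the part of the colon, and do not say that each library is a separate mouse, so p-values measure the spread between these libraries. The Sgo1 row, listed as Sgol1, ran from 1.83 to 2.80 CPM in Sgo1-/+ and from 1.41 to 6.79 CPM in WT, with an edgeR log2 change of -0.67 ± 0.32 (SE; unadjusted p = 0.056, adjusted p = 0.55).

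Library totals were 5711553 to 10198304 counts. The immunoglobulin chain rows with a mean of 5 or more counts, those found by identifier included, together took 0.0145% to 0.0485% of them. Lower rows and the row over Iglc1 are not in this share. Levels are CPM, counts scaled to a common library size, on sizes adjusted by TMM, a method that sets the typical gene to no change. A count of 3, taken as the limit of detection, equals 0.239 to 0.796 CPM. Rows resembling mitochondrial transcripts took 14.3% to 44.0% of counts and were highest in WT replicates 3 and 5 and Sgo1-/+ replicate 3. Of the epithelial markers of this tissue, the mucin gene Muc2 had 3568 to 9993 CPM in Sgo1-/+ and 3032 to 7363 CPM in WT. WT replicate 1 and Sgo1-/+ replicate 3 also shared 84 rows that were above 3 CPM in both and over 4 times the highest other library, among them 3 olfactory receptor genes, whereas the next of the 66 pairs of libraries shared 5 such rows. Column names carry a suffix in 4 libraries, WT replicates 1 and 6 and Sgo1-/+ replicates 5 and 6, and values within and without this set are given beside the main ones.

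An antibody is built from heavy and light chains. Each chain joins a variable segment, chosen by DNA rearrangement in the B cell, through a joining segment to a constant region, and the heavy constant gene sets the class. Plasma cells of the gut lamina propria mostly make IgA, whose chains are linked by the joining chain (Igj, also called Jchain). The epithelial receptor Pigr carries this polymeric IgA across the epithelium into the lumen. In bulk tissue, fewer plasma cells and less antibody RNA per cell cannot be told apart.

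The joining segments Ighj4 and Igkj2 are shown because every antibody transcript of a locus carries a segment of this kind. They are taken from the transcripts of GENCODE M21 (GRCm38), 5′ to 3′. Capitals mark the codons of the Trp-Gly-X-Gly turn in the heavy chain and of the Phe-Gly-X-Gly turn in the light chain.
Ighj4 (chr12:113428514-113428567, minus strand): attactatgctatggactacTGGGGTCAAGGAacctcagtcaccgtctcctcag
Igkj2 (chr6:70722916-70722954, plus strand): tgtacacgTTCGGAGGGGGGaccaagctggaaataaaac
The heavy motif, TGGGGNNNNGGN, was found in 4 of 4 annotated heavy joining segments and in 28.6% of all 14 joining segments. The light motif, TTCGGNNNNGGN, was found in 4 of 5 kappa, 4 of 5 lambda and 57.1% of all joining segments, and neither was found on the opposite strand. The Ighj4 and Igkj2 rows of the files cover the exons printed, whereas the Ighj2 row (54 bases) shares only 2 bases with the exon of the annotated Ighj2 segment, which is therefore not printed.

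The constant regions that carried most antibody counts were those of the kappa chain and of IgA. The first 90 bases of each, at the end that is spliced to the joining segment, are as follows.
Igkc (chr6:70726435-70726524, plus strand): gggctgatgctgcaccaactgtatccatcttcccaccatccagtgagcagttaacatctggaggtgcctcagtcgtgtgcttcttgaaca
Igha (chr12:113260147-113260236, minus strand): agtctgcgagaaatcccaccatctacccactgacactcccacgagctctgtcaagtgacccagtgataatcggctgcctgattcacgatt

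Igkc, Igha and Igj had lower means in Sgo1-/+ than in WT mucosa, but no immunoglobulin gene passed the adjusted threshold. With edgeR's quasi-likelihood test and Benjamini-Hochberg adjustment over 13889 genes, 0.0% of all genes were called, and the smallest adjusted p of any gene was 0.28. Of the 18 members 8 passed the filter on low counts, and 0 of these were called by edgeR, DESeq2 or limma-voom. Of the 8, 5 had a log2 change below 0, against 51.0% of all genes, and 2 of them (25.0%) were lower at an unadjusted p under 0.05, against 4.73% of all genes (9.04% of all genes passed that mark in either direction). Their median log2 change was -0.03, beside -0.01 over all genes. Of 4 rows found by identifier that passed the filter, all 4 had a log2 change below 0, and 2 did so at an unadjusted p under 0.05, with 0 called. DESeq2 called 30 genes in all (0.216%), none of them an immunoglobulin gene, with a smallest adjusted p of 0.15 for Igha.

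Among the constant genes, Igkc, the kappa light chain (ENSMUSG00000076609, chromosome 6), was the most abundant. Its level was 67.4, 93.1 and 160 CPM (lowest, median and highest) in Sgo1-/+, against 105, 141 and 235 CPM in WT. The groups overlapped through Sgo1-/+ replicates 1 and 5, while 4 of 6 Sgo1-/+ libraries lay below the lowest WT library. The means were 99.2 ± 32.7 CPM in Sgo1-/+ and 155 ± 50.1 CPM in WT (SD, n = 6 each), and the edgeR log2 change was -0.64 ± 0.23 (SE; unadjusted p = 0.017, adjusted p = 0.53).

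Igha, the constant gene of IgA (ENSMUSG00000095079, chromosome 12, found by identifier), had 53.5, 93.1 and 102 CPM in Sgo1-/+, against 85.7, 139 and 259 CPM in WT. In WT, 5 of 6 libraries lay above the highest Sgo1-/+ library, and WT replicate 6 lay among the Sgo1-/+ libraries. Its log2 change was -0.82 ± 0.25 (SE; edgeR unadjusted p = 0.0053, adjusted p = 0.49). Igkc and Igha were counted at a similar depth: there were 0.787 to 1.73 Igkc counts for each Igha count in Sgo1-/+ and 0.885 to 1.35 in WT. Per kilobase of exon the mean level of Igkc was 307 CPM in Sgo1-/+ and 479 CPM in WT, and that of Igha was 82.1 CPM in Sgo1-/+ and 146 CPM in WT.

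Igj, the joining chain of polymeric IgA and IgM (ENSMUSG00000067149, chromosome 5), had 13.8, 32.1 and 34.0 CPM in Sgo1-/+, against 26.3, 40.9 and 62.8 CPM in WT. All 6 Sgo1-/+ libraries lay below the WT median, and WT replicates 1 and 6 lay within the Sgo1-/+ range. The log2 change was -0.63 ± 0.26 (SE; edgeR unadjusted p = 0.032, adjusted p = 0.53). Pigr, made by the epithelium (ENSMUSG00000026417, chromosome 1), was the most abundant member by far. It had 2253, 3488 and 5785 CPM in Sgo1-/+ and 3071, 3524 and 5308 CPM in WT, so that the Sgo1-/+ range covered the WT range on both sides. Its log2 change was -0.03 ± 0.23 (SE; edgeR adjusted p = 0.98).

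**Figure D1:**
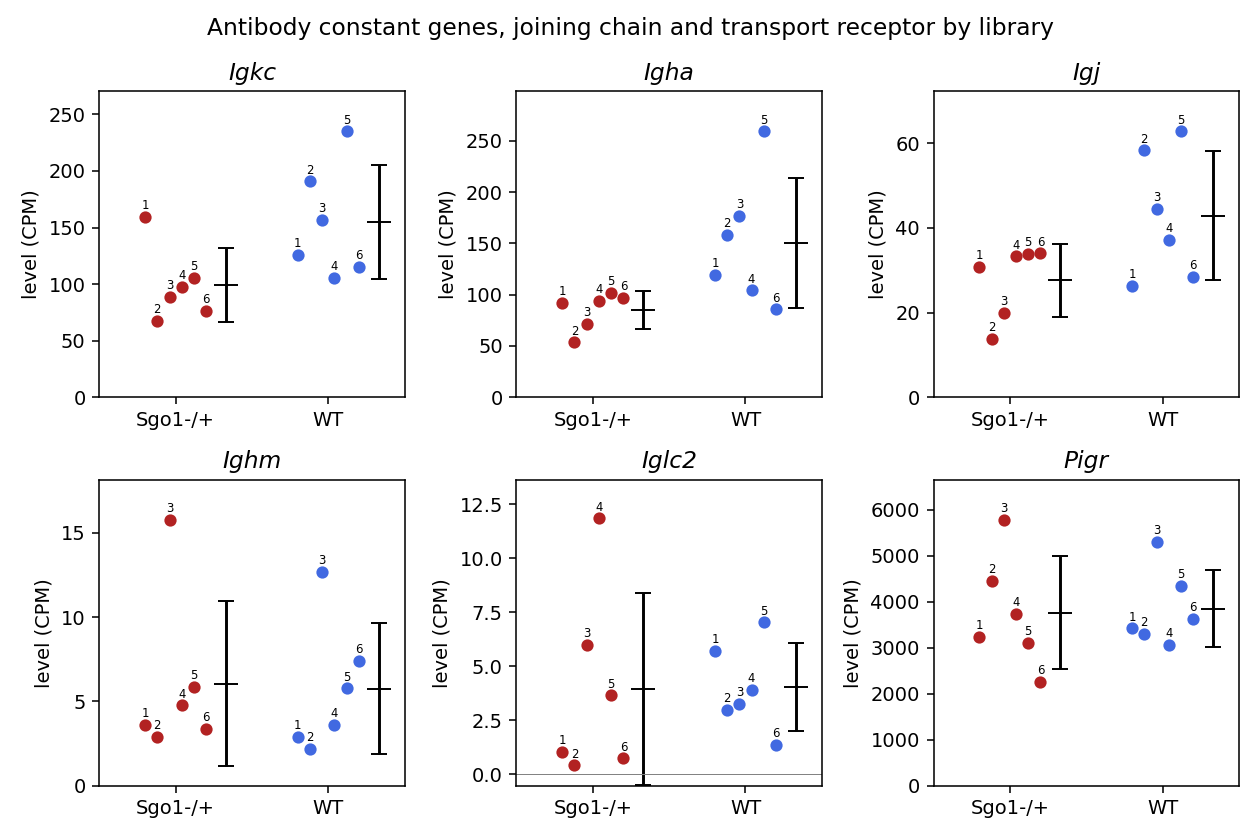
Level in CPM (vertical axes, linear) of the constant genes Igkc, Igha, Ighm and Iglc2, of Igj and of Pigr in 6 Sgo1-/+ and 6 WT libraries (points, numbered by replicate), with the mean and SD beside each group (for Iglc2 in Sgo1-/+ the mean less the SD falls below 0). In Igkc, Igha and Igj the highest libraries are WT replicates, 235, 259 and 62.8 CPM at most, while in Ighm and Pigr Sgo1-/+ replicate 3 is the highest library.

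The lower levels of Igha and Igj in Sgo1-/+ stood in the libraries without the column suffix. Among these 8 libraries Igha ran from 53.5 to 94.1 CPM in Sgo1-/+ and from 104 to 259 CPM in WT. Igj ran from 13.8 to 33.3 CPM in Sgo1-/+ and from 37.3 to 62.8 CPM in WT. Neither gene overlapped between the genotypes here, whereas both did over all 12 libraries. How many of all genes were without overlap in these 8 libraries was not measured. The exact two-sided permutation p was 0.029 for each (n = 4 each), the smallest this split allows. For Igkc in these 8 libraries the exact two-sided permutation test gave p = 0.086 (n = 4 each). Over all 12 libraries the exact two-sided permutation test gave p = 0.019 for Igha, 0.035 for Igkc and 0.069 for Igj (n = 6 each). These permutation p-values are unadjusted. Among the 4 libraries with the suffix, Igha averaged 99.2 CPM in Sgo1-/+ and 102 CPM in WT, and Igj 33.9 CPM in Sgo1-/+ and 27.4 CPM in WT. With n = 2 each the exact test cannot go below p = 0.33, and whether the genotype difference differs between the sets was not tested. Igkc had a lower mean in Sgo1-/+ in both sets. Without the suffix the means were 103 CPM in Sgo1-/+ and 172 CPM in WT, and the groups overlapped (67.4 to 160 CPM in Sgo1-/+ and 105 to 235 CPM in WT). With the suffix the means were 90.9 CPM in Sgo1-/+ and 121 CPM in WT. Without the 3 libraries richest in mitochondrial-like rows, the edgeR log2 changes were -0.40 for Igkc (adjusted p = 0.56), -0.40 for Igha (adjusted p = 0.47) and -0.36 for Igj (adjusted p = 0.66). The part of these rows in the result was not tested.

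The other heavy constant genes were low and each was set by a few libraries. Ighm, the constant gene of IgM and of the receptor of naive B cells, had 2.92, 4.19 and 15.8 CPM in Sgo1-/+ and 2.19, 4.68 and 12.7 CPM in WT. Replicate 3 was the highest library of both genotypes, and the groups overlapped almost entirely. The log2 change was 0.06 ± 0.50 (SE; edgeR adjusted p = 0.98), and it was -0.46 without Sgo1-/+ replicate 3. Ighg1, the constant gene of IgG1, had 0.344, 1.78 and 25.4 CPM in Sgo1-/+ and 0.262, 1.44 and 5.84 CPM in WT. A single library, Sgo1-/+ replicate 1, held 264 Ighg1 counts, and no other library passed 22 counts. The log2 change of 1.40 ± 0.97 (SE; edgeR adjusted p = 0.67) was -0.49 without that library.

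Ighg2b, the constant gene of IgG2b and a close relative of Ighg1, so that the split of counts between them is uncertain, had 0.192, 2.07 and 10.1 CPM in Sgo1-/+ and 0.191, 2.45 and 7.66 CPM in WT. The groups spanned nearly the same range, with replicate 3 highest in both genotypes. Its log2 change was 0.25 ± 0.92 (SE; edgeR adjusted p = 0.95), and it was -0.36 without Sgo1-/+ replicate 3. Ighe, the constant gene of IgE, did not pass the count filter. It had 0, 0.387 and 6.44 CPM in Sgo1-/+ and 0.191, 0.734 and 6.23 CPM in WT. The highest libraries were Sgo1-/+ replicate 3 and WT replicate 1, the pair that shared 84 unusual rows, followed by WT replicate 5 at 4.25 CPM. In the 5 other libraries of each genotype Ighe averaged 0.330 ± 0.414 CPM in Sgo1-/+ and 1.30 ± 1.66 CPM in WT (SD), and the part of those rows in its level was not tested.

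IgA was the leading class in every library. Of the heavy constant counts Igha held 66.6%, 88.5% and 95.9% (lowest, median and highest) in Sgo1-/+ and 86.2%, 91.6% and 98.1% in WT. The lowest shares were in Sgo1-/+ replicate 3, where Ighm held 14.7%, Ighg2b 9.43% and Ighe 6.02%, and in Sgo1-/+ replicate 1, where Ighg1 held 20.4%. The other 4 Sgo1-/+ libraries had 86.7% to 95.9% Igha, within the WT range. Taken per base of exon over Igha, Ighm, Ighg1, Ighg2b and Ighe, the Igha share was 72.0% to 97.2% in Sgo1-/+ and 89.1% to 98.7% in WT.

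**Figure D2:**
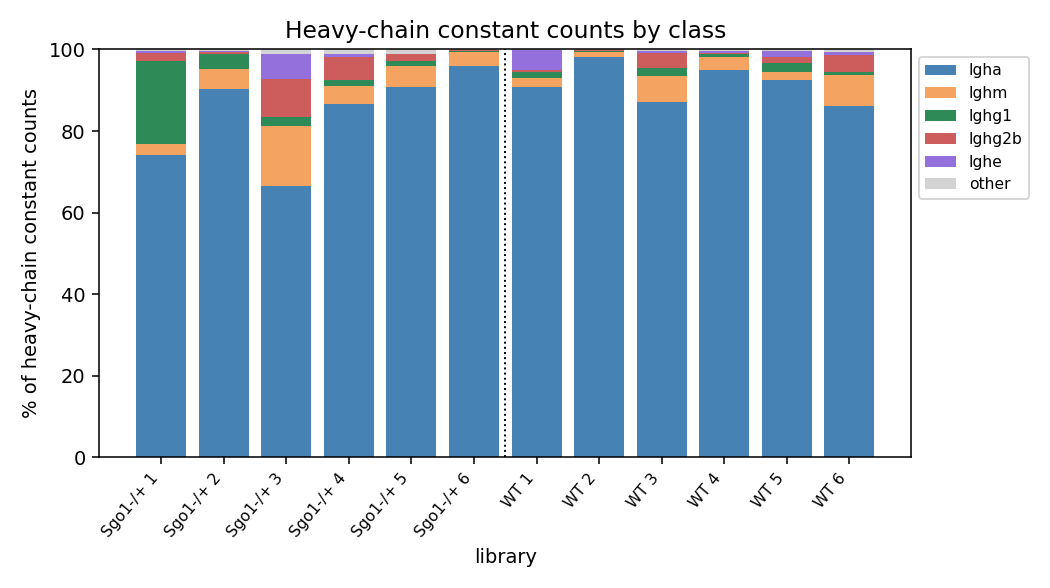
Share of each class in the heavy-chain constant counts of a library (vertical axis, percent of counts; horizontal axis, Sgo1-/+ replicates 1 to 6, then WT replicates 1 to 6; colours, constant genes). Igha fills 66.6% or more of every bar, and the Ighg1 block of 20.4% in Sgo1-/+ replicate 1 and the Ighm block of 14.7% in Sgo1-/+ replicate 3 stand out.

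The light chains were mostly kappa. Iglc2, a lambda constant gene whose row also spans the joining segment Iglj2, had 0.411, 2.34 and 11.9 CPM in Sgo1-/+ and 1.34, 3.58 and 7.03 CPM in WT. Sgo1-/+ replicate 4 was the highest library and 3 Sgo1-/+ libraries lay below every WT library, so the Sgo1-/+ range enclosed the WT range. The log2 change was -0.02 ± 0.69 (SE; edgeR adjusted p = 0.99). Igkc made up 89.2% to 99.4% of Igkc and Iglc2 counts in Sgo1-/+ and 95.6% to 98.9% in WT. With the unnamed row over Iglc1 added to lambda the kappa share was 88.8% to 98.0% in Sgo1-/+ and 91.2% to 95.7% in WT. Counted on variable segments it was 83.2% to 96.6% in Sgo1-/+ and 88.1% to 96.1% in WT.

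Summed over the 6 constant members, the level was 73.3, 120 and 193 CPM in Sgo1-/+ and 114, 164 and 262 CPM in WT, a log2 difference of -0.54. With Igha added the sum was 127, 208 and 285 CPM in Sgo1-/+ and 216, 309 and 521 CPM in WT, a log2 difference of -0.63. The groups overlapped in both sums, and Igkc and Igha made up most of them. The 10 variable and joining members summed to 5.38, 7.86 and 8.87 CPM in Sgo1-/+ and 4.38, 12.4 and 29.2 CPM in WT. The Sgo1-/+ sums lay close together and inside the WT range, and the log2 difference was -0.53. It was -0.23 without WT replicate 3 and -0.17 without the 3 libraries richest in mitochondrial-like rows. Within the libraries without the suffix the log2 difference was -0.56 for the constant and -0.75 for the variable and joining members, and within those with it -0.49 and -0.08. These sums are descriptions and were not tested.

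Segment by segment the variable members rested on few reads. Of the 10 variable and joining members only Iglv1, a lambda variable segment, passed the count filter. It had 0.878, 1.38 and 4.04 CPM in Sgo1-/+ and 0.718, 2.68 and 4.64 CPM in WT. The groups overlapped, with 5 of 6 Sgo1-/+ libraries below the WT median, and the log2 change was -0.49 ± 0.44 (SE; edgeR adjusted p = 0.74). It was -0.19 without WT replicate 2 and -0.87 without Sgo1-/+ replicate 6. Among heavy variable members, Ighv7-1 had 0, 0.0907 and 1.93 CPM in Sgo1-/+ and 0, 0.604 and 16.9 CPM in WT, and WT replicate 3 alone held the high value. Ighv3-6 peaked at 3.43 CPM in Sgo1-/+ and 2.44 CPM in WT, and Ighv6-3 at 2.03 CPM in Sgo1-/+ and 2.33 CPM in WT. The kappa members Igkv2-137, Igkv8-30 and Igkv8-24 peaked at 1.49, 1.09 and 2.68 CPM in Sgo1-/+ and at 3.30, 1.82 and 1.95 CPM in WT. Both ranges overlapped in each of these 5 segments, and all 5 were at 0 in at least 1 library.

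The joining segments are much shorter than a gene and had means of 5.05 to 5.33 counts. Ighj2 had 0.197, 0.497 and 0.822 CPM in Sgo1-/+ and 0.502, 0.931 and 1.46 CPM in WT, with all 6 Sgo1-/+ libraries below the WT median, but its row lies almost wholly beside the annotated segment. Ighj4 had 0.220, 0.406 and 0.905 CPM in Sgo1-/+ and 0.222, 0.711 and 1.60 CPM in WT. Igkj2 had 0.0871, 0.527 and 1.02 CPM in Sgo1-/+ and 0.265, 0.566 and 1.62 CPM in WT. The groups overlapped in all 3, and the levels stood near the limit of detection.

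Among the variable segments with a mean of 5 or more counts, the rows found by identifier held most counts. The 2 most abundant kappa segments, Igkv1-110 and Igkv1-117, were 97.2% identical over the last 180 bases of their exons, where capitals mark the 5 bases that differ. They are shown because reads from this stretch may fall in either row, and because 85.0% of the counts above 0 in variable rows were not whole numbers.
Igkv1-110 (chr6:68271088-68271267, plus strand): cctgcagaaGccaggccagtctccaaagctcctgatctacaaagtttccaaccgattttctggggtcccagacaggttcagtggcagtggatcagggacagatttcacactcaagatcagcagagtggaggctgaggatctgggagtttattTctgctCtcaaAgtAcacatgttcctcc
Igkv1-117 (chr6:68121648-68121827, plus strand): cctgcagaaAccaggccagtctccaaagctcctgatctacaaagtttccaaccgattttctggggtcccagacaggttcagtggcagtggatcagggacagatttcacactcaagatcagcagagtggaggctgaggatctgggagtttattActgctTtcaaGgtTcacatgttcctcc
Igkv1-117 had 0.751, 1.55 and 2.82 CPM in Sgo1-/+ and 0.834, 4.18 and 15.2 CPM in WT, with WT replicate 2 highest and all 6 Sgo1-/+ libraries below the WT median. Its log2 change was -1.76 ± 0.59 (SE; edgeR unadjusted p = 0.0099, adjusted p = 0.52), and it was -1.11 without WT replicate 2. Igkv1-110 had 1.27, 2.61 and 7.67 CPM in Sgo1-/+ and 1.93, 3.76 and 18.2 CPM in WT, with a log2 change of -1.30 ± 0.63 (SE; adjusted p = 0.55). The groups overlapped in both segments, and given their likeness the split of counts between these rows is uncertain. Without the 3 libraries richest in mitochondrial-like rows, the log2 change of Igkv1-110 was 0.02, and without WT replicate 3 alone it was -0.86.

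Single libraries dominated several heavy segments. Ighv11-2 had 16.8 CPM in Sgo1-/+ replicate 3 and 23.7 CPM in WT replicate 1, and at most 1.35 CPM in the other 10 libraries. Ighv3-1 had 7.59 CPM in Sgo1-/+ replicate 3 and 9.43 CPM in WT replicate 1, and at most 0.603 CPM elsewhere. Both segments were among the 84 rows that this pair of libraries shared, and the part of those rows in these levels was not tested. Ighv1-53 had 0.329, 1.01 and 4.68 CPM in Sgo1-/+ and 0.567, 1.70 and 4.43 CPM in WT (log2 change -0.47 ± 0.60, SE; edgeR adjusted p = 0.82). Its log2 change was -1.24 without Sgo1-/+ replicate 1, which held the highest level, and -0.65 to -0.19 without any other single library.

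**Figure D3:**
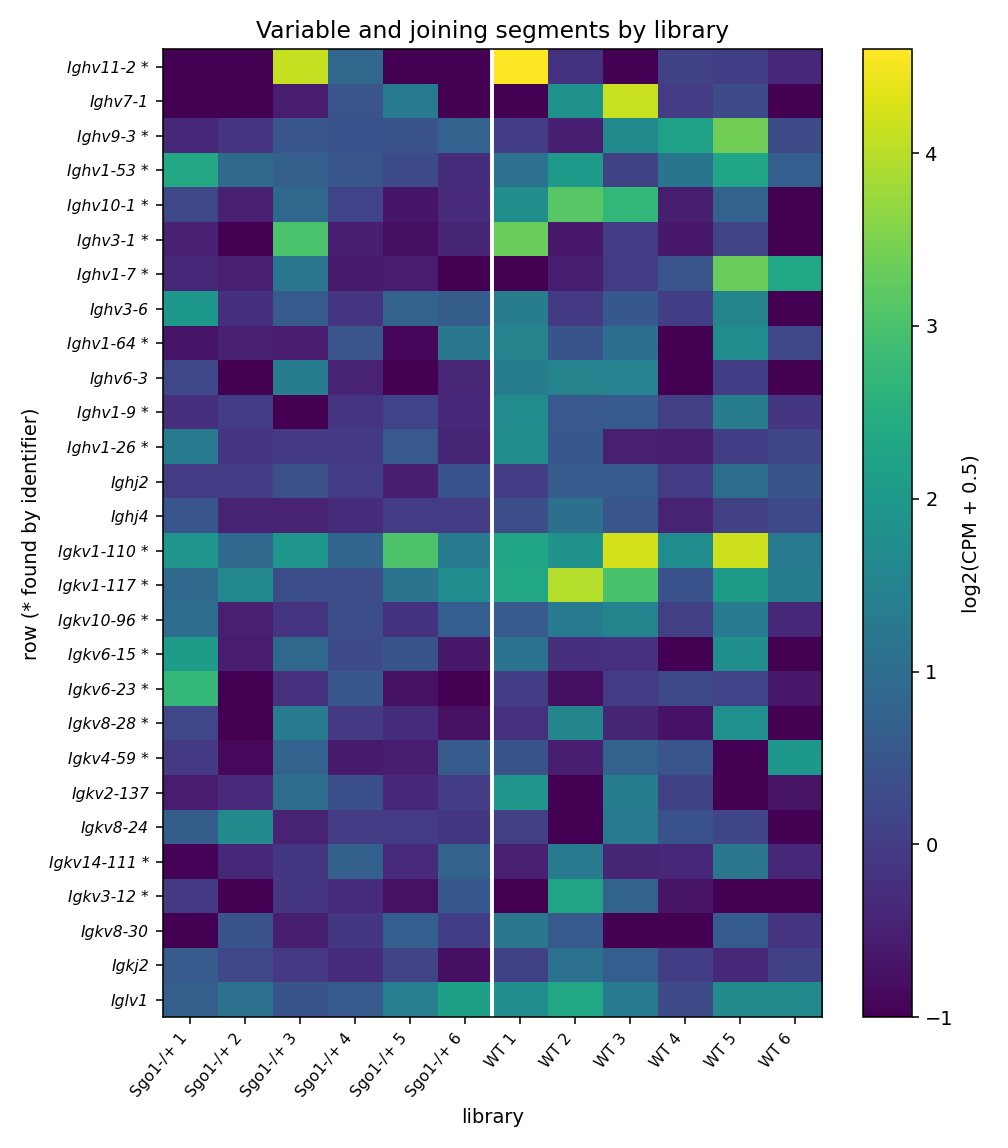
Variable and joining segments with a mean of 5 or more counts (rows; an asterisk marks rows found by identifier) in each library (columns, Sgo1-/+ replicates 1 to 6, then WT replicates 1 to 6), coloured by log2(CPM + 0.5). Bright cells are scattered over single libraries, with Ighv11-2 bright in both Sgo1-/+ replicate 3 and WT replicate 1, at 16.8 and 23.7 CPM.

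Of the 25 variable segments with a mean of 5 or more counts, 21 had a lower mean CPM in Sgo1-/+ than in WT and 19 a lower median. Among the 7 members alone, 5 had a lower mean, and 51.0% of all genes tested had an edgeR log2 change below 0. High libraries of 1 genotype can lift a segment over the minimum. Ighv10-1 had up to 86.9 counts in WT and 7.37 in Sgo1-/+, and Igkv6-23 up to 63.4 in Sgo1-/+ and 4.74 in WT. The tally is therefore a description and no finding. The 25 segments summed to 13.9, 21.4 and 46.5 CPM in Sgo1-/+ and 17.8, 63.9 and 72.5 CPM in WT. WT replicates 4 and 6 lay inside the Sgo1-/+ range and the other 4 WT libraries above it. Over all 213 named variable rows, with no minimum, the sums were 32.2, 43.3 and 71.7 CPM in Sgo1-/+ and 39.1, 95.4 and 137 CPM in WT, and the log2 difference was -0.71. The 110 heavy variable rows summed to 13.9, 16.2 and 46.0 CPM in Sgo1-/+ and 16.8, 43.7 and 63.7 CPM in WT, and the 100 kappa rows to 16.6, 23.6 and 34.1 CPM in Sgo1-/+ and 20.4, 43.3 and 68.2 CPM in WT.

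How evenly segments shared the counts was measured by the inverse Simpson index, the number of equally used segments that would give the same evenness. Over the 7 variable members it was 2.57, 3.76 and 5.89 in Sgo1-/+ and 1.39, 3.85 and 5.14 in WT. Over all heavy variable rows it was 5.83, 17.1 and 27.6 in Sgo1-/+ and 5.78, 10.4 and 14.6 in WT, and over all kappa rows 8.80, 15.5 and 30.8 in Sgo1-/+ and 6.03, 12.5 and 17.2 in WT. The ranges overlapped, and Sgo1-/+ replicate 4 had the highest index in both loci. This library had the largest total count, but its 211 heavy and 285 kappa variable counts were not the most in either locus. The top heavy segment took 8.05% to 36.5% of the heavy variable counts in Sgo1-/+ and 15.6% to 37.3% in WT. Several libraries shared a top heavy segment, and each of the others had its own. Ighv11-2 led in Sgo1-/+ replicates 3 and 4 and in WT replicate 1. Ighv9-3 led in WT replicates 4 and 5, and Ighv7-1 in Sgo1-/+ replicate 5 and WT replicate 3. These indices rest on 135 to 260 heavy and 107 to 355 kappa variable counts per library in Sgo1-/+, and on 117 to 429 heavy and 142 to 483 kappa counts in WT.

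**Figure D4:**
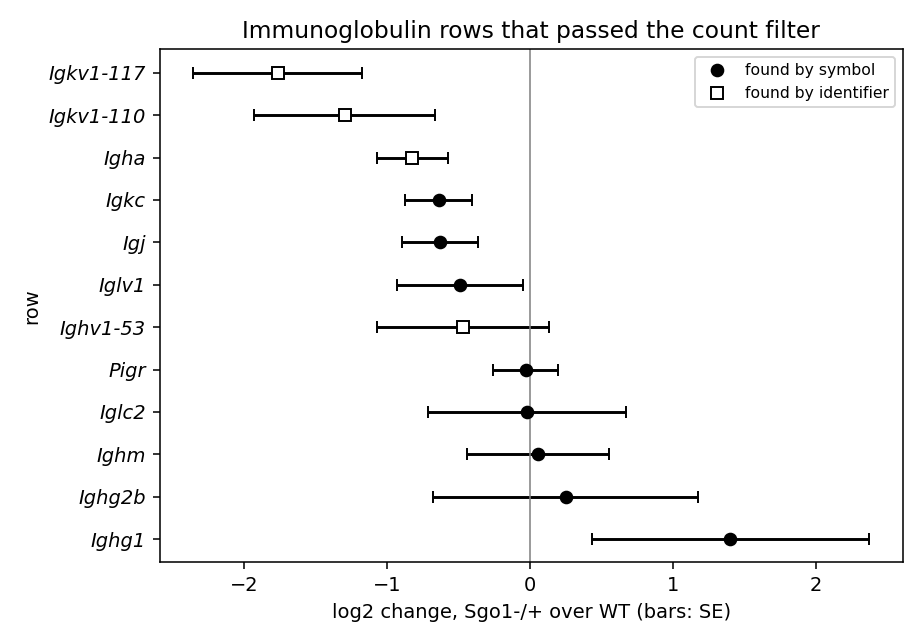
Log2 change of Sgo1-/+ over WT from edgeR (horizontal axis; bars, SE) for the 12 immunoglobulin rows that passed the count filter (filled circles, found by symbol; open squares, found by identifier). Igkv1-117 at -1.76 has the lowest and Ighg1 at 1.40 the highest estimate, and none passed the adjusted threshold.

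Across the 12 libraries Igkc went with Igha and with Igj, while no relation of Igkc with Ighm was detected. On log2(CPM + 0.5), Igkc correlated with Igha at Pearson r = 0.86 (permutation p = 0.00027, adjusted p = 0.0016 over 6 pairs of genes) and Spearman rho = 0.70 (permutation p = 0.014, adjusted p = 0.042). The r was 0.72 without the 2 libraries farthest from the median of Igkc, 0.77 on deviations from the genotype means and 0.91 in the 8 libraries without the suffix. Within each genotype (n = 6) it was 0.55 in Sgo1-/+ and 0.93 in WT. Igkc and Igj gave r = 0.80 (permutation p = 0.0017, adjusted p = 0.0050) and rho = 0.59 (permutation p = 0.050, adjusted p = 0.0996), with r = 0.60 without the 2 farthest libraries and 0.90 in the 8 libraries without the suffix. For this pair r was 0.70 on deviations from the genotype means, 0.53 in Sgo1-/+ and 0.87 in WT. Igkc and Ighm gave r = 0.0021 (permutation p = 1.00) and rho = -0.0070 (p = 0.99), Igkc and Iglc2 r = 0.34 (permutation p = 0.29) and rho = 0.20 (p = 0.53), and Igkc and Pigr r = 0.13 (permutation p = 0.69) and rho = 0 (p = 1). Ighm instead went with Cd79a, a part of the B cell receptor, at r = 0.77 (permutation p = 0.0046, adjusted p = 0.0091) and rho = 0.80 (permutation p = 0.0029, adjusted p = 0.017), with r = 0.72 without the 2 farthest libraries and 0.80 in the 8 without the suffix. Within genotype the r of Ighm and Cd79a was 0.69 in Sgo1-/+ and 0.84 in WT. The Cd79a pair was chosen after its values had been seen.

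**Figure D5:**
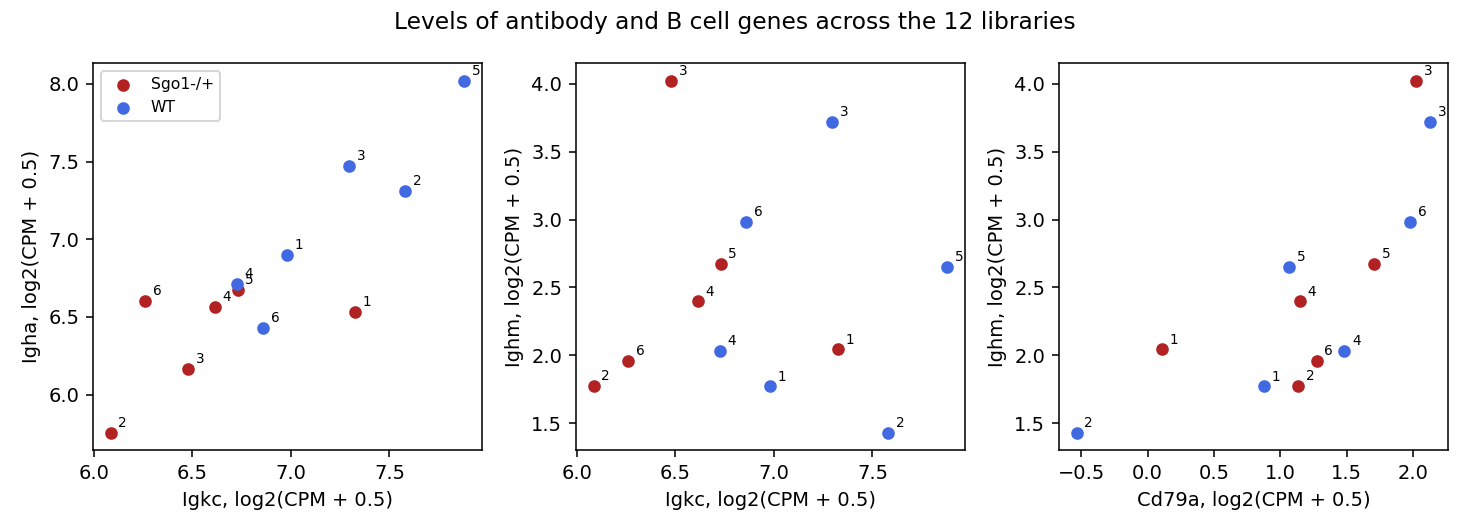
Igha against Igkc, Ighm against Igkc, and Ighm against Cd79a in each library (log2(CPM + 0.5) on both axes; red, Sgo1-/+; blue, WT; numbers, replicates). The points rise together in the first panel (r = 0.86) and the third (r = 0.77), and show no slope in the second (r = 0.0021).

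The genes listed for plasma cell identity did not move as a group. In bulk mucosa their levels cannot be assigned to plasma cells alone, and the part of other cells in them was not tested. Of the 20 listed genes 14 passed the filter, 7 with a log2 change above 0 and 7 below, none called and 1 lower at an unadjusted p under 0.05, with a median log2 change of -0.04. The gene lower at that mark was Prdm1, a transcriptional repressor that drives plasma cell fate and is also used by T cells. It had 2.87, 4.50 and 12.1 CPM in Sgo1-/+ and 4.85, 9.14 and 25.0 CPM in WT (log2 change -0.999 ± 0.41, SE; edgeR adjusted p = 0.53). Cd38 and Txndc5, the most abundant of the list, had 127 to 195 and 68.5 to 284 CPM in Sgo1-/+ and 106 to 413 and 75.2 to 251 CPM in WT. The summed level of the list was 592 to 931 CPM in Sgo1-/+ and 572 to 1186 CPM in WT, while Tnfrsf17, the plasma cell receptor for survival factors, was at 0 in 6 or more libraries. Mzb1, a chaperone of IgM and IgA assembly, had 0.183, 0.435 and 0.637 CPM in Sgo1-/+ and 0.287, 0.521 and 3.72 CPM in WT, with WT replicate 5 far above the other libraries.

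No mature B cell gene was called, and the direction of the list turned with 1 library. Of 23 genes 15 passed the filter, 14 with a log2 change below 0 and 1 above, none called and 0 at an unadjusted p under 0.05 in edgeR, with a median of -0.18. Pax5, the factor of B cell identity, had 7.58, 10.2 and 41.6 CPM in Sgo1-/+ and 7.72, 18.7 and 44.1 CPM in WT. Siglecg, an inhibitory B cell lectin, had 0.0137, 0.900 and 7.89 CPM in Sgo1-/+ and 2.13, 4.53 and 20.1 CPM in WT (log2 change -1.91 ± 0.90, SE; edgeR adjusted p = 0.55). The list summed to 42.1, 48.8 and 133 CPM in Sgo1-/+ and 40.8, 80.3 and 148 CPM in WT. Replicate 3, the highest library of each genotype in Ighm, stood at 133 CPM in Sgo1-/+ and 145 CPM in WT. The list's median log2 change was -0.65 without both libraries that stand apart and 0.14 without WT replicate 3. On total counts it was 0.17, below the median of all genes in that setting, 0.31.

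The genes that recruit, sustain and export IgA were measured beside the antibody genes. Of 23 induction, homing and survival factors 10 passed the filter, 3 with a log2 change above 0 and 7 below (median -0.15), and none was called. Ccl28, an epithelial chemokine that attracts IgA plasma cells, had 48.7, 108 and 164 CPM in Sgo1-/+ and 63.5, 91.0 and 127 CPM in WT (log2 change 0.30 ± 0.26, SE; edgeR adjusted p = 0.73). Aldh1a1, which makes retinoic acid, had 218, 295 and 566 CPM in Sgo1-/+ and 229, 544 and 693 CPM in WT (log2 change -0.58 ± 0.28, SE; edgeR adjusted p = 0.55). Of 6 antibody receptor and transport genes tested, 2 were above 0 and 4 below (median -0.25), 1 in each direction at an unadjusted p under 0.05 and none called. Tfrc, the transferrin receptor, which also binds polymeric IgA in humans, had 107, 128 and 170 CPM in Sgo1-/+ and 66.5, 80.4 and 118 CPM in WT (log2 change 0.54 ± 0.16, SE; edgeR unadjusted p = 0.0049, adjusted p = 0.49). Fcgrt, the neonatal receptor for IgG, had 28.6, 39.7 and 47.1 CPM in Sgo1-/+ and 35.5, 44.0 and 85.1 CPM in WT (log2 change -0.45 ± 0.21, SE; edgeR adjusted p = 0.55).

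All 18 genes of antibody folding and secretion, chaperones and other genes that every secreting cell uses, passed the filter. Of these 11 had a log2 change above 0 and 7 below, with a median of 0.02, none called and 1 lower at an unadjusted p under 0.05. The chaperones Hsp90b1 and Hspa5 had log2 changes of 0.00 ± 0.13 and -0.03 ± 0.15 (SE), and Herpud1, a gene of endoplasmic reticulum degradation, had -0.32 ± 0.13 (SE; edgeR adjusted p = 0.53).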

How the data were processed

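Colonic mucosa RNA was sequenced on an Illumina MiSeq, per the labels' protocols. The submitters' processing notes name DESeq and build mm10 (aligner, counter and strand setting: not given in the sources used here). The authors deposited expected counts per gene (69.6% of values above 0 not whole, tolerance 0) and log2 normalized values, which were not used. Counts were rounded. The 505 rows without an Ensembl identifier (1.79% to 5.40% of counts) entered neither library sizes nor tests. edgeR 4.0.16 (R 4.3.3; TMM, filterByExpr at 10 and 15 counts, glmQLFit and glmQLFTest, Benjamini-Hochberg threshold 0.05) tested 13889 genes, checked on simulated data; SE is the absolute log2 change over the square root of F. DESeq2 1.42.0 and limma-voom 3.58.1 were alternatives. Libraries of a group differed beyond sampling noise (chi-square per degree of freedom 16.3 or more). Each was counted as 1 sample, but this spread does not show that each is a separate mouse.

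Members, gene lists and tests were chosen with earlier results of these data known. Named genes are all constant and transport members, the top variable members by level, and for most lists the 2 most abundant genes and the smallest p. Exon lengths, names and sequences come from GENCODE M21 (GRCm38, the build of mm10). Log2 CPM outside edgeR used a pseudocount of 0.5. Correlations used 100000 permutations.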

Additional observations from a re-analysis of the deposited data

Results flagged for a closer look

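In 21 of 78 groups of 6 libraries looked at (each member, each row found by identifier and the row over Iglc1, per genotype), 1 library stood far from the rest of its genotype by Dixon's test at 95%. Chance flags about 1 in 20 groups of normally distributed values, and the rate for low, skewed levels such as these was not measured. Sgo1-/+ replicate 3 was apart in 7 rows: Ighm at 15.8 CPM (next highest Sgo1-/+ library 5.88 CPM), Ighe at 6.44 CPM (next 0.876), Ighv11-2 at 16.8 CPM (next 1.35), Ighv3-1 at 7.59 CPM (next 0.247), Ighv6-3 at 2.03 CPM (next 0.667), Ighv1-7 at 1.78 CPM (next 0.288) and Igkv8-28 at 1.98 CPM (next 0.647). Sgo1-/+ replicate 1 was apart in 5: Ighg1 at 25.4 CPM (next 2.25), Ighv1-53 at 4.68 CPM (next 1.41), Ighv3-6 at 3.43 CPM (next 1.20), Igkv6-23 at 6.09 CPM (next 0.943) and Igkv6-15 at 3.73 CPM (next 1.35).

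WT replicate 1 was apart in 3 rows: Ighv11-2 at 23.7 CPM (next highest WT library 0.574 CPM), Ighv3-1 at 9.43 CPM (next 0.603) and Ighv1-26 at 2.88 CPM (next 0.958). The other 6 were Sgo1-/+ replicate 2 in Igkv8-24 at 2.68 CPM (next 1.06), Sgo1-/+ replicate 5 in Igkv1-110 at 7.67 CPM (next 3.35), WT replicate 2 in Igkv3-12 at 4.34 CPM (next 1.22), WT replicate 3 in Ighv7-1 at 16.9 CPM (next 3.11), WT replicate 5 in Mzb1 at 3.72 CPM (next 1.00) and WT replicate 6 in Igkv4-59 at 3.49 CPM (next 1.19).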

How the results depend on the processing

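No member was called under any of 26 alternatives, so leaving out each library in turn gave 0 calls each time. All genes called were 30 with DESeq2, 1 in the suffix libraries alone and 0 under the other 24. Igkc, Igha and Igkv1-117 kept a log2 change below 0 under all 26 alternatives, between -0.81 and -0.27, -1.15 and -0.05, and -2.33 and -0.54, with adjusted p of 0.15 to 1.00 over the 3. Without 1 library, Igkc ran from -0.81 to -0.48, Igha from -0.94 to -0.60 and Igj from -0.74 to -0.47.

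Directions turned as follows, and the cause was not tested. In the suffix libraries alone the log2 changes were -0.19 (Ighm), -0.68 (Ighg1), -1.36 (Ighg2b), 0.30 (Igj), 0.19 (Iglv1) and 0.59 (Igkv1-110), and the plasma cell list median was 0.021. In the libraries without the suffix they were 0.20 (Iglc2) and 0.11 (Pigr). Without both libraries that stand apart they were -0.59 (Ighm) and -0.57 (Ighg2b), and the plasma cell list median was 0.012. Without the 3 libraries of highest mitochondrial-like share they were 0.063 (Iglc2), 0.013 (Pigr) and 0.024 (Igkv1-110). With no count filter they were 0.010 (Iglc2) and 0.0012 (Pigr). On total counts, which move the median of all genes to 0.31, they were 0.32 (Iglc2) and 0.27 (Pigr), and the list medians were 0.29 (plasma cell) and 0.17 (mature B cell). With mitochondrial-like rows out of the library sizes the plasma cell list median was 0.0060. Without 1 library, the log2 change ran from -0.46 to 0.45 for Ighm, -0.49 to 1.94 for Ighg1, -0.36 to 0.83 for Ighg2b, -0.83 to 0.23 for Iglc2 and -0.19 to 0.094 for Pigr, and the list median from -0.46 to 0.14 for mature B cells and -0.13 to 0.029 for plasma cells. Removing Sgo1-/+ replicate 3 gave the lowest Ighm and Ighg2b values, Sgo1-/+ replicate 1 the lowest Ighg1 value and Sgo1-/+ replicate 4 the lowest Iglc2 value. Removing WT replicate 3 gave the highest mature B cell median and Sgo1-/+ replicate 4 the highest plasma cell median. Iglv1 alone was tested among variable members by the main filter; the median over those tested turned in 4 alternatives, to 0.17 at most. The difference in effective number of variable segments, Sgo1-/+ minus WT, was 0.35 over the members and 2.31 with the rows found by identifier.

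Replicate numbers are shared between genotypes but did not pair the libraries (correlations of same-numbered deviations -0.30 to 0.45). With them as a replicate block, Igkc was at -0.64 (adjusted p = 0.38) and 0 genes were called. A minimum mean of 20 counts left no variable member, so that alternative gave no value. At 3 counts the detection limit is 0.239 to 0.796 CPM, which most single variable segments approach; it covers counting error only.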

Other observations

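Markers of other cells in the mucosa were summed for each library. The 14 T cell genes summed to 15.1, 17.4 and 19.4 CPM (lowest, median and highest) in Sgo1-/+ and 20.9, 22.8 and 32.5 CPM in WT, without overlap, beside the lower Igkc, Igha and Igj means. The highest sum was in WT replicate 1, a library that stands apart. Every other list summed here overlapped between the genotypes, and the share of all genes without overlap was not measured. Of 7 T cell genes tested, 5 had a log2 change below 0 (median -0.61), 2 of them, Cd3g of the T cell receptor complex and the granzyme gene Gzma, at an unadjusted p under 0.05, and none was called by edgeR. The 7 adipocyte genes, among them Fabp4, Cfd and Car3, summed to 2.19, 76.4 and 177 CPM in Sgo1-/+ and 5.82, 17.9 and 73.0 CPM in WT. Of 4 tested, 3 had a log2 change above 0 (median 2.19), 2 of them at an unadjusted p under 0.05, and none was called by edgeR. The part of these cells in the antibody levels was not tested.

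Macrophage and dendritic cell genes summed to 85.5, 106 and 171 CPM in Sgo1-/+ and 112, 144 and 204 CPM in WT, with 8 of 10 tested below 0 (median -0.12). Mertk, a receptor for dying cells, had 43.3, 50.1 and 58.8 CPM in Sgo1-/+ and 59.95, 65.5 and 79.3 CPM in WT, without overlap (log2 change -0.38 ± 0.11, SE; edgeR unadjusted p = 0.0034, adjusted p = 0.49). It is named as the gene with the smallest p of its list, and how many of all genes were without overlap was not measured. Of 12 epithelial genes 5 were above 0 and 7 below (median -0.01). Medians were -0.22 over 9 germinal centre, 0.30 over 5 endothelial, -0.02 over 7 fibroblast and 0.24 over 5 smooth muscle genes tested; 1 granulocyte and mast cell gene was tested (0.48), and 7 of that list, S100a8 and S100a9 among them, were at 0 in 6 or more libraries. B cell progenitor genes summed to 0.272 to 1.26 CPM in Sgo1-/+ and 0.862 to 2.97 CPM in WT, and none passed the filter.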
